A study of Mus musculus with 6 samples.

Results

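Genes of bile acid synthesis and its control were examined in liver RNA of mice that lacked 1 copy of Cebpb in Kupffer cells. The set holds 10 genes chosen by name, 8 enzymes (Cyp7a1, Cyp8b1, Cyp27a1, Cyp7b1, Hsd3b7, Akr1d1, Slc27a5 and Baat) and 2 nuclear receptors (Nr0b2 and Nr1h4), out of 17119 gene symbols in the count table. All 10 had enough counts to be tested, together with the rest of 12706 genes. The study compared 3 liver samples of genotype Clec4f-iCre;Cebpbfl/+ (heterozygous livers) with 3 samples of Clec4f-iCre;Cebpb+/+ littermates (wild-type livers), all after 12 weeks on a high-fat high-cholesterol diet (HFHCD) that brings on steatohepatitis. The Cre is driven by Clec4f, a gene of the liver's resident macrophages, the Kupffer cells, so by design hepatocytes of both groups keep both Cebpb copies. The labels of replicates 2 and 3 name the Cre with a running number (Clec5f, Clec6f), and the series design, which names Clec4f throughout, was followed. Age, sex and litter per sample are not given in the labels. They also leave it unsaid whether every sample came from a separate animal, so the spread behind each p-value may be technical.

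Bile acids are made from cholesterol in hepatocytes and are the main route by which the liver disposes of cholesterol. The classic pathway starts with CYP7A1 in the endoplasmic reticulum, and CYP8B1 then decides how much cholic acid is formed; the alternative pathway starts with CYP27A1 in mitochondria and goes on through CYP7B1. Bile acids bind FXR (Nr1h4), which induces SHP (Nr0b2), and SHP in turn lowers transcription of Cyp7a1 and Cyp8b1. In mice the intestinal hormone FGF15 adds to this feedback through FGFR4 and its partner β-Klotho on hepatocytes, and cytokines of activated macrophages are known to lower Cyp7a1.

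No gene of the set passed the test for a difference between the groups. The edgeR quasi-likelihood test called 0 of 10 at an adjusted p of 0.05, against 0.582% of all genes tested (0.0236% higher and 0.559% lower), and 0 of 10 had an unadjusted p under 0.05, against 13.2% of all genes. DESeq2 and limma-voom also called 0 of 10, where they called 4.2% and 0.362% of all genes. For each of the 10 genes the libraries of the groups overlapped, whereas they did not overlap for 18.4% of all genes (7.05% higher and 11.3% lower). The fold changes were split evenly, with 5 positive and 5 negative (51% and 49% of all genes), and their median on the log2 scale was −0.0058, against 0.0048 over all genes. The median absolute log2 fold change was 0.087 for the set and 0.158 for all genes. The 95% intervals of 9 of the 10 genes excluded a 2-fold difference in either direction, and those of 6 genes also excluded a 1.5-fold difference (limits chosen after the values were seen).

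**Figure D1:**
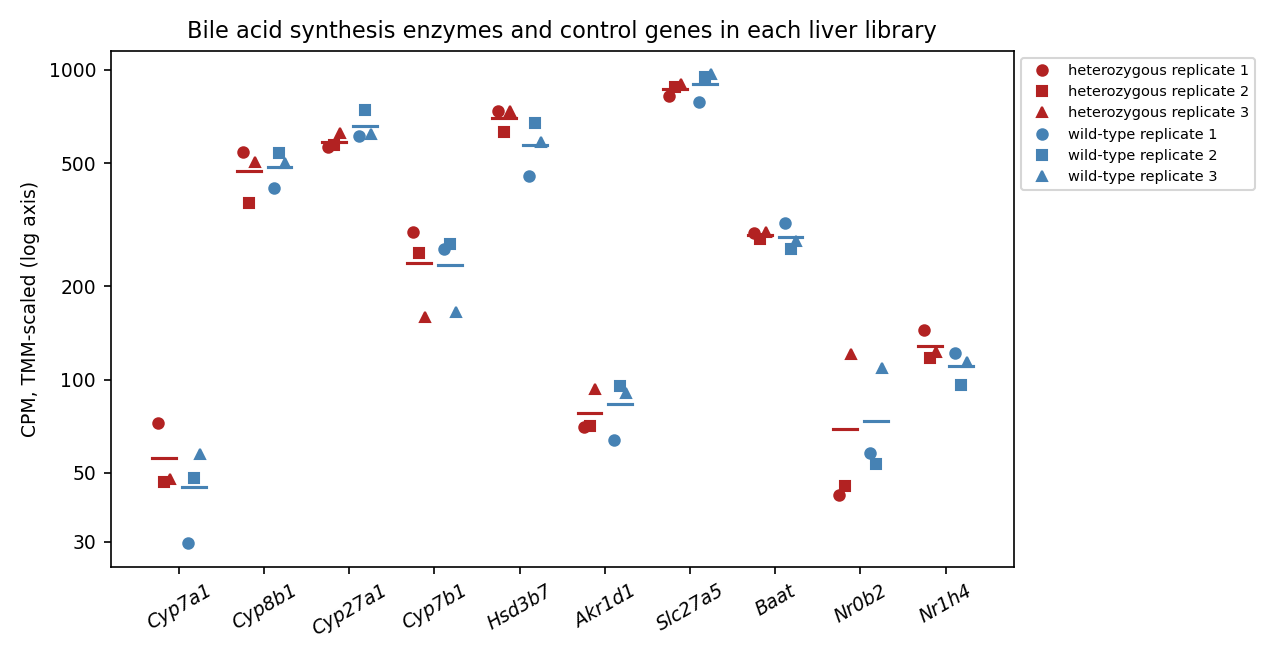
Level of each gene in each library, in TMM-scaled CPM on a log axis; points are libraries, marked by replicate number, and bars are group means of 3. Heterozygous (red) and wild-type (blue) libraries overlap for all 10 genes, and Nr0b2 is high and Cyp7b1 low in replicate 3 of both groups.

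The libraries held 16895322 to 17750755 counts, and each of the 3 wild-type libraries was deeper than every heterozygous library. Levels below are in CPM, counts scaled to a common library size with TMM factors, with the SD over 3 libraries. Cebpb measured 204, 498 and 269 CPM in the heterozygous replicates against 506, 308 and 340.4 CPM in the wild-type replicates. In whole liver that RNA also comes from cells without the deletion, so it checks the labels only weakly (log2 fold change −0.25 ± 0.37 with a 95% interval of −1.13 to 0.64, edgeR adjusted p = 0.864). Hepatocyte markers were abundant throughout, with 9 of 9 measured markers tested and a summed level of 114684 to 136259 CPM in heterozygous and 100070.0 to 134354 CPM in wild-type libraries. Kupffer cell and macrophage markers summed to 251 to 280.3 CPM in heterozygous and 559 to 1022 CPM in wild-type libraries, with 0 of 9 at zero counts. DESeq2 called 6 of 9 lower (Cd68, Lyz2, Csf1r, Cd5l, Marco and Clec4f), against 4.2% of all genes called in either direction. EdgeR and limma-voom called 2 of 9 lower (Cd68 and Lyz2), against 0.582% and 0.362% of all genes in either direction. Both edgeR calls were lost without heterozygous replicate 1 or 2 or wild-type replicate 3, that of Cd68 also without wild-type replicate 1 or 2 (edgeR adjusted p up to 0.218 for Cd68 and 0.189 for Lyz2). Clec4f measured 4.31, 4.97 and 3.90 CPM in the heterozygous replicates against 48.6, 38.5 and 5.42 CPM in the wild-type replicates (edgeR adjusted p = 0.260, DESeq2 adjusted p = 0.0215); without wild-type replicate 3 it passed in edgeR (adjusted p = 0.000607). In bulk tissue fewer cells of a type and less RNA per cell cannot be told apart. Wild-type replicate 1 stood apart in the mean log2 CPM of 18 acute phase genes, though not in each gene. The mean was 8.16, 8.85 and 8.23 in the heterozygous replicates and 10.33, 8.74 and 9.09 in the wild-type replicates. Il1rn of this list was highest in wild-type replicate 2.

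Promoter windows of the 250 bases before the transcript start were available in a RefSeq table (GRCm38.p6) for 6 of the 10 genes (Cyp27a1, Nr0b2, Akr1d1, Hsd3b7, Cyp8b1 and Nr1h4). They were searched on both strands for 4 motifs: the NR5A2 site CAAGGNCA, the FXR inverted repeat (AGGTCA, any base, TGACCT), the direct repeat bound by HNF4A and related receptors (AGGTCA, any base, AGGTCA), and the C/EBP motif TTGCNNAA. NR5A2 (LRH-1) is the factor through which SHP is known to act on Cyp7a1 and Cyp8b1. The 3 windows that held a match are shown in lower case, 5′ to 3′ on the strand of the gene, with the match in capitals. No match overlapped another.
Nr0b2 promoter, chr4:133553126-133553375, plus strand: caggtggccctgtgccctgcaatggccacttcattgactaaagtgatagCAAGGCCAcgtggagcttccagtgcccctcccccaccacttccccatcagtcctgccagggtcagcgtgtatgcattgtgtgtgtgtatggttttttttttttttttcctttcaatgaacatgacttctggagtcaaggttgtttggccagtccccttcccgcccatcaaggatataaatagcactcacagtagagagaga
Cyp8b1 promoter, chr9:121916306-121916555, minus strand: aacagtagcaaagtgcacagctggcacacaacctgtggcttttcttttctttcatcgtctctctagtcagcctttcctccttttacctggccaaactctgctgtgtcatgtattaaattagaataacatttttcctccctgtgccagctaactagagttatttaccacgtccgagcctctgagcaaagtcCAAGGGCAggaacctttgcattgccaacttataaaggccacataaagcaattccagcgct
Akr1d1 promoter, chr6:37529923-37530172, plus strand: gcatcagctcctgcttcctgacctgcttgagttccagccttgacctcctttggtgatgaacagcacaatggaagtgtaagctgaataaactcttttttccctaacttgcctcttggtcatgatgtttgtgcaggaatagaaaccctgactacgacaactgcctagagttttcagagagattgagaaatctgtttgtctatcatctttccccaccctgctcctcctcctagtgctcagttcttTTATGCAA
Nr0b2, the gene of the set that varied most within groups, and Cyp8b1 each held 1 NR5A2 site on the strand of the gene, CAAGGCCA beginning 201 bases and CAAGGGCA beginning 60 bases upstream of the transcript. Akr1d1 held 1 C/EBP motif on the opposite strand, read as TTATGCAA along the gene and ending at the last base before the transcript. Among all 32851 promoter windows of this length, 5.53% held the NR5A2 site, 9.56% the C/EBP motif, 0.0335% the direct repeat and 0.00609% the FXR repeat. A match describes these letters and is not evidence of binding.

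The enzyme at the head of the classic pathway, Cyp7a1, measured 72.6, 46.6 and 47.7 CPM in heterozygous replicates 1, 2 and 3, against 29.6, 48.1 and 57.7 CPM in wild-type replicates 1, 2 and 3. Heterozygous replicate 1 was the highest and wild-type replicate 1 the lowest of the 6 libraries, and the other 4 lay between 46.6 and 57.7 CPM. The means of 55.6 ± 14.7 CPM in heterozygous and 45.1 ± 14.2 CPM in wild-type livers differed by less than the SD of either group (log2 fold change 0.30 ± 0.28 with a 95% interval of −0.36 to 0.96, edgeR adjusted p = 0.747). The difference rested on these libraries: the log2 fold change was 0.078 without heterozygous replicate 1 and 0.093 without wild-type replicate 1, the library with the highest acute phase level (edgeR adjusted p = 0.996 and 0.918; range over all alternatives 0.558 to 0.996). Cyp8b1, the sterol hydroxylase needed for cholic acid, measured 542, 373 and 504 CPM in heterozygous replicates 1, 2 and 3, against 416, 538 and 500.2 CPM in wild-type replicates 1, 2 and 3. Its lowest library was heterozygous replicate 2 and its second lowest wild-type replicate 1, so both groups spanned much the same range (log2 fold change −0.037 ± 0.17 with a 95% interval of −0.41 to 0.34, edgeR adjusted p = 0.965). The interval corresponds to a heterozygous level of 0.753 to 1.26 times that in wild-type livers.

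Cyp8b1 was above Cyp7a1 in every library when levels were divided by exon length. The Cyp8b1 to Cyp7a1 ratio per kilobase was 16, 17.1 and 22.6 in the heterozygous replicates and 30.1, 23.9 and 18.6 in the wild-type replicates. These ranges overlapped, and the means were 18.6 ± 3.54 in heterozygous and 24.2 ± 5.76 in wild-type livers. The highest ratio was that of wild-type replicate 1, the library with the least Cyp7a1.

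Of the enzymes that open the alternative pathway, Cyp27a1 measured 562, 570.4 and 624 CPM in heterozygous replicates 1, 2 and 3, against 609.5, 741 and 622 CPM in wild-type replicates 1, 2 and 3. Wild-type replicates 1 and 3 lay within the heterozygous range, and wild-type replicate 2 was above every other library (log2 fold change −0.17 ± 0.12 with a 95% interval of −0.44 to 0.11, edgeR adjusted p = 0.657). CYP27A1 also takes part in side-chain oxidation in the classic pathway, and macrophages express it as well as hepatocytes; what macrophage RNA contributes to this level was not tested. Cyp7b1, the oxysterol hydroxylase of the alternative pathway and a gene expressed more in male than in female mouse liver, measured 299, 257 and 159 CPM in heterozygous replicates 1, 2 and 3, against 264, 273 and 165 CPM in wild-type replicates 1, 2 and 3. In each group replicate 3 was far below the other 2 libraries, and the group means nearly coincided at 238 ± 71.7 CPM in heterozygous and 234 ± 60.1 CPM in wild-type livers (log2 fold change 0.025 ± 0.28 with a 95% interval of −0.62 to 0.67, edgeR adjusted p = 0.989). The Y-linked gene Ddx3y was present in all 6 libraries at 26.3 to 37.1 CPM.

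**Figure D2:**
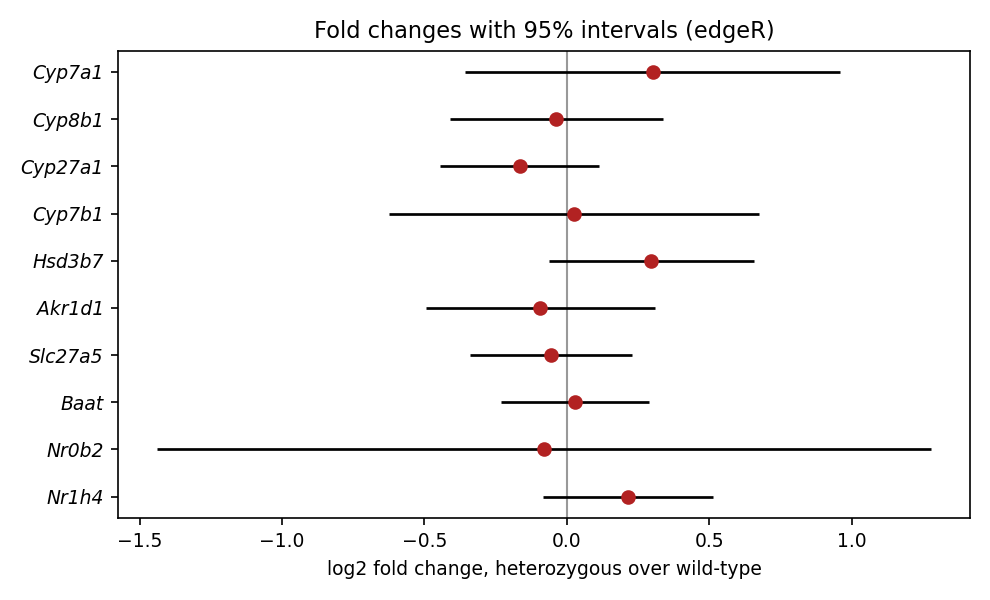
Log2 fold change of each gene, heterozygous over wild-type (points), with its 95% interval from the edgeR quasi-likelihood fit (lines), on 3 libraries per group. All 10 intervals include 0; the widest is that of Nr0b2 (−1.44 to 1.28) and the narrowest that of Baat (−0.23 to 0.29).

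Among the enzymes that modify the sterol ring, Hsd3b7, the dehydrogenase acting after the hydroxylation step in both pathways, measured 739, 631 and 734 CPM in heterozygous replicates 1, 2 and 3, against 453, 674 and 585 CPM in wild-type replicates 1, 2 and 3. Of the 10 genes it had the smallest unadjusted p, 0.094, and its means were 701 ± 61 CPM in heterozygous and 571 ± 111 CPM in wild-type livers (log2 fold change 0.30 ± 0.16 with a 95% interval of −0.062 to 0.66, edgeR adjusted p = 0.496). Wild-type replicate 1 was again the lowest library; without it the log2 fold change was 0.18 (edgeR adjusted p = 0.698, range over all alternatives 0.348 to 0.864). Akr1d1, the reductase that gives bile acids their bent ring junction, measured 70.1, 70.6 and 93.2 CPM in heterozygous replicates 1, 2 and 3, against 63.9, 95.5 and 90.3 CPM in wild-type replicates 1, 2 and 3. Its lowest library was wild-type replicate 1 and its highest wild-type replicate 2, so the heterozygous values lay inside the wild-type range (log2 fold change −0.094 ± 0.18 with a 95% interval of −0.50 to 0.31, edgeR adjusted p = 0.904).

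Of the conjugating enzymes, Slc27a5, the bile acyl-CoA synthetase, measured 823, 880.1 and 899 CPM in heterozygous replicates 1, 2 and 3, against 785, 949 and 968 CPM in wild-type replicates 1, 2 and 3. The heterozygous libraries lay within the wild-type range (log2 fold change −0.055 ± 0.13 with a 95% interval of −0.34 to 0.23, edgeR adjusted p = 0.927). Baat, which joins the activated bile acid to taurine, measured 298, 284 and 298 CPM in heterozygous replicates 1, 2 and 3, against 320.4, 263 and 279 CPM in wild-type replicates 1, 2 and 3. It was the steadiest gene of the set: 85.6% of all genes tested had a larger SD of log2 CPM within groups, and its interval of 0.851 to 1.22-fold was the narrowest (log2 fold change 0.028 ± 0.12 with a 95% interval of −0.23 to 0.29, edgeR adjusted p = 0.962). Baat was highest in wild-type replicate 1, the library in which Cyp7a1, Hsd3b7, Akr1d1 and Slc27a5 were lowest. In all, wild-type replicate 1 held the lowest value for 4 of the 8 enzymes and heterozygous replicate 1 the highest for 4. How often these libraries held the extreme value over all genes is not given here. Whether the acute phase level has a part in these extremes of the enzymes was not tested.

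The receptors of the feedback loop differed in how steady they were. Nr1h4, which encodes the bile acid receptor FXR, measured 145, 118 and 123 CPM in heterozygous replicates 1, 2 and 3, against 122, 95.8 and 114 CPM in wild-type replicates 1, 2 and 3. The highest library was heterozygous replicate 1 and the lowest wild-type replicate 2, with the other 4 between 114 and 123 CPM (log2 fold change 0.21 ± 0.13 with a 95% interval of −0.084 to 0.51, edgeR adjusted p = 0.568). Nr0b2, which encodes the repressor SHP, measured 42.4, 45.2 and 121 CPM in heterozygous replicates 1, 2 and 3, against 58, 53.2 and 109 CPM in wild-type replicates 1, 2 and 3. Replicate 3 was the highest library in each group, at 2.85 times the lowest among heterozygous and 2.05 times the lowest among wild-type libraries, and the remaining libraries of both groups lay between 42.4 and 58 CPM. Only 3.94% of all genes tested had a larger SD of log2 CPM within groups, and the interval spanned 0.369 to 2.43-fold (log2 fold change −0.080 ± 0.54 with a 95% interval of −1.44 to 1.28, edgeR adjusted p = 0.979). Without heterozygous replicate 3 the log2 fold change was −0.74, and without wild-type replicate 3 it was 0.32, so this design gives Nr0b2 no direction (edgeR adjusted p = 0.399 and 0.910; range over all alternatives 0.399 to 0.996). Cyp7b1 was lowest in the same pair of libraries. Cyp7a1 and Cyp8b1, known targets of SHP, stood there at 47.7 and 504 CPM in heterozygous and 57.7 and 500.2 CPM in wild-type replicate 3. These levels were neither the highest nor the lowest of the 6 for either gene. Whether the Nr0b2 level has a part in those of Cyp7a1, Cyp8b1 or Cyp7b1 was not tested. The Nr0b2 to Nr1h4 ratio per kilobase of exon was 0.595, 0.780 and 2.0 in the heterozygous replicates and 0.965, 1.13 and 1.94 in the wild-type replicates.

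**Figure D3:**
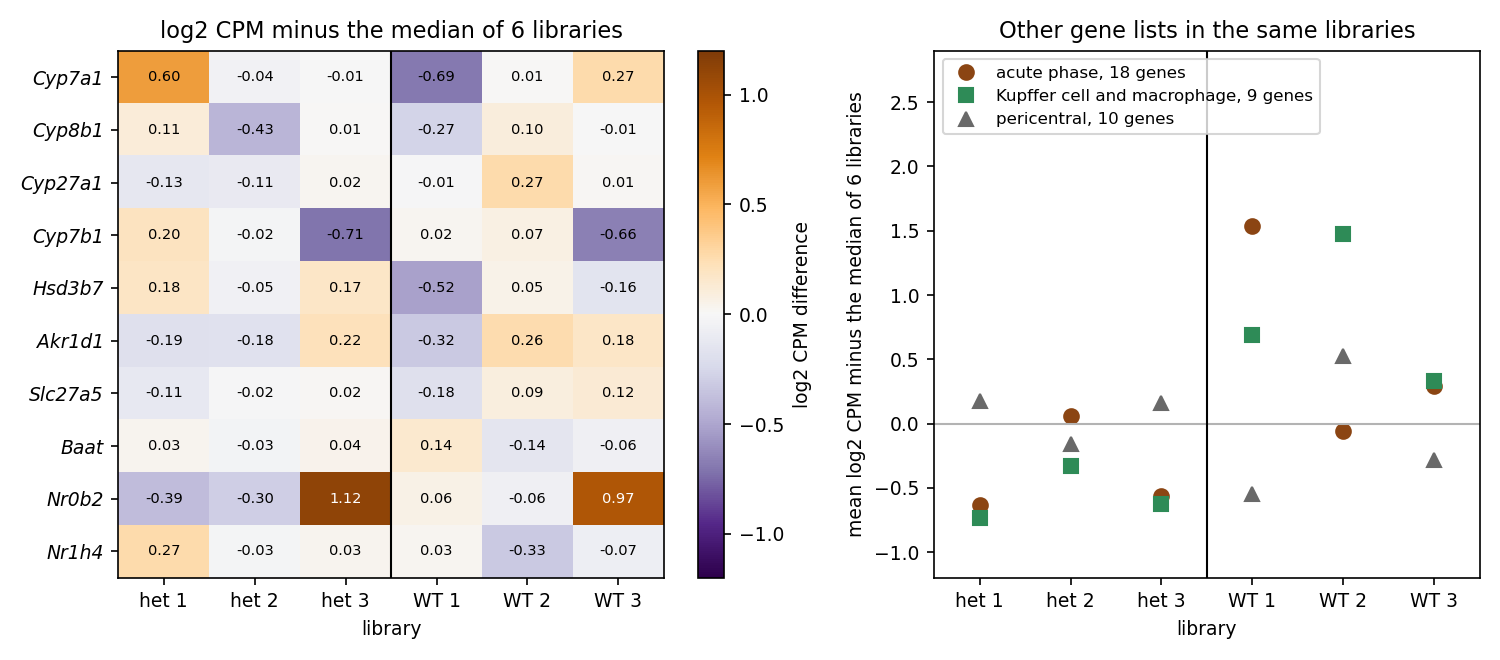
Left, log2 CPM of each gene in each library minus its median over the 6 libraries (colour and printed value); right, the same for the mean log2 CPM of 3 other gene lists, heterozygous libraries left of the line and wild-type libraries right of it. Wild-type replicate 1 combines the lowest Cyp7a1 (−0.69) and Hsd3b7 (−0.52) with the highest acute phase level, and replicate 3 of both groups combines high Nr0b2 (1.12 and 0.97) with low Cyp7b1 (−0.71 and −0.66).

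Levels spanned a wide range within the set. Per kilobase of exon, Slc27a5 averaged 372 and 387 CPM in heterozygous and wild-type livers, Hsd3b7 353 and 287, Cyp27a1 309.6 and 347 and Cyp8b1 242 and 249. Cyp27a1 and Hsd3b7 changed places between libraries, with each the higher in 3 of 6, while Slc27a5 was above Cyp27a1 in 6 of 6. Baat (151 and 148), Cyp7b1 (110.0 and 108), Nr0b2 (61.3 and 64.8), Nr1h4 (55.8 and 48.1) and Akr1d1 (28.9 and 30.8) followed in the same unit and group order. Nr0b2 and Nr1h4 could not be ordered, since each was the higher in 3 of 6 libraries, and Cyp7b1 was above Nr0b2 in 4 of 6. Cyp7a1 was the lowest of the set in every library (13.3 and 10.8 CPM per kilobase in heterozygous and wild-type livers). Ranges that did not touch separated Cyp8b1 from Baat, Nr1h4 from Akr1d1, and Akr1d1 from Cyp7a1.

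No other enzyme of the pathway passed either. Of 14 listed genes all were tested, 0 passed the threshold in either direction, 12 had a positive and 2 a negative fold change, and the median was 0.15 on the log2 scale (51% of all genes were positive). Wild-type replicate 1 was the lowest library for Hsd17b4, Scp2, Abcd3, Stard3 and Sult2a8, named for this after their values were seen, and other libraries were lowest for the rest. With an unadjusted edgeR p under 0.05 there were 3 of 14, against 13.2% of all genes, and DESeq2 and limma-voom called 0. For 2 of 14 the heterozygous libraries all lay above the wild-type libraries, against 7.05% of all genes. Sult2a8, a bile acid sulfotransferase of mouse liver, measured 613, 579 and 593 CPM in the heterozygous replicates against 459, 527 and 472 CPM in the wild-type replicates, without overlap (log2 fold change 0.29 ± 0.11, edgeR adjusted p = 0.292). Cyp46a1, the cholesterol hydroxylase best known from brain, measured 6.58, 3.63 and 7.0 CPM in the heterozygous replicates against 2.87, 2.34 and 4.38 CPM in the wild-type replicates (edgeR adjusted p = 0.294). Ch25h, a cholesterol hydroxylase induced in activated macrophages, stood at 0.641, 0.787 and 0.287 CPM in the heterozygous replicates against 2.74, 0.762 and 1.04 CPM in the wild-type replicates (edgeR adjusted p = 0.357). Cyp2c70, which makes the muricholic acids of mice and has close copies among the Cyp2c genes, was highest in wild-type replicate 1, with 463, 467 and 487 CPM in the heterozygous replicates against 723, 549.9 and 451 CPM in the wild-type replicates (log2 fold change −0.28 ± 0.17, edgeR adjusted p = 0.547).

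Regulators were examined next. Of 23 listed genes 20 were tested, 0 passed the threshold, and 5 fold changes were positive and 15 negative, with a median of −0.083 on the log2 scale. Klb and Fgfr4, which encode β-Klotho and the receptor it assists for FGF15, had the smallest p-values of the list, and both had no overlap between groups, as was the case in this direction for 7.05% of all genes. Klb measured 38, 42.3 and 28.8 CPM in the heterozygous replicates against 21.6, 27.6 and 28.2 CPM in the wild-type replicates (log2 fold change 0.50 ± 0.17, edgeR adjusted p = 0.221). Fgfr4 measured 60.2, 69.8 and 53.3 CPM in the heterozygous replicates against 38.5, 49.7 and 48.4 CPM in the wild-type replicates (log2 fold change 0.42 ± 0.14, edgeR adjusted p = 0.224). Neither passed in edgeR or DESeq2, and only 2 of the 20 had an unadjusted edgeR p under 0.05, against 13.2% of all genes. Rxra, the partner of FXR, measured 336, 449.8 and 368 CPM in the heterozygous replicates against 456, 507 and 449 CPM in the wild-type replicates, and Ppargc1a, a coactivator induced in fasting, was high in 1 library at 5.36, 29 and 7.97 CPM in the heterozygous replicates against 5.31, 6.69 and 6.90 CPM in the wild-type replicates (edgeR adjusted p = 0.417 and 0.567). Nr5a2 and Hnf4a, activators of Cyp7a1 named here for that role after their values were seen, had log2 fold changes of 0.18 ± 0.15 and −0.24 ± 0.25 (edgeR adjusted p = 0.728 and 0.782). Gpbar1 and Vdr were too low to test.

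Bile acid transporters had positive fold changes throughout. Of 12 listed genes 10 were tested, all 10 positive (51% of all genes were) with a median of 0.34 on the log2 scale. However, edgeR and limma-voom called 0, and DESeq2 called 1 of 10, against 4.2% of all genes. An unadjusted edgeR p under 0.05 was found for 2 of 10, against 13.2% of all genes. For 1 of 10 the heterozygous libraries all lay above the wild-type libraries, against 7.05% of all genes. The gene called by DESeq2 was Abcc2, the canalicular exporter of conjugated anions, with 394, 347 and 316 CPM in the heterozygous replicates against 238, 286 and 233 CPM in the wild-type replicates and no overlap (log2 fold change 0.48 ± 0.13, edgeR adjusted p = 0.139, DESeq2 adjusted p = 0.0312). Abcb11, the bile salt export pump and an FXR target, measured 666, 561 and 488 CPM in the heterozygous replicates against 372, 518 and 474 CPM in the wild-type replicates (edgeR adjusted p = 0.454). Slco1a1, an uptake carrier expressed more in males, stood at 312, 340.0 and 201 CPM in the heterozygous replicates against 224, 209 and 162 CPM in the wild-type replicates (edgeR adjusted p = 0.326). Slc10a1, the main bile acid importer, had a log2 fold change of 0.010 ± 0.13, which was negative without wild-type replicate 1 (−0.058) and without heterozygous replicate 3 (−0.040). Without wild-type replicate 1 the fold changes were positive for 8 of 10, with a median of 0.21. Wild-type replicate 1 was the lowest library for Abcb11, Abcb4, Slco1b2, Abcc3, Abcc4 and Slc10a1, members named after their values were seen.

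**Figure D4:**
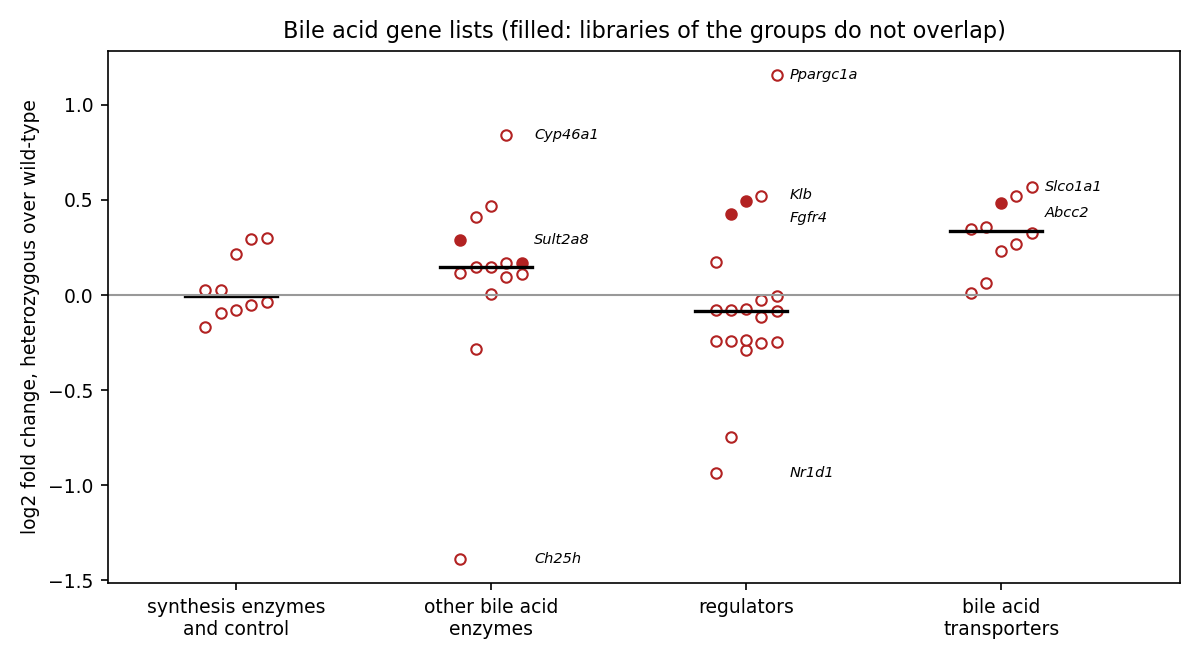
Log2 fold change, heterozygous over wild-type, of each tested gene in 4 bile acid gene lists; bars are list medians, and filled points are genes whose libraries do not overlap between the groups. The 10 synthesis and control genes centre on −0.0058, the 10 transporters on 0.34, and no gene shown passes an edgeR adjusted p of 0.05.

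Acute phase genes, which hepatocytes express in inflammation, had negative fold changes throughout. Of the 18 genes 1 passed the threshold in edgeR, against 0.582% of all genes in either direction. That gene was Il1rn, the interleukin 1 receptor antagonist, which macrophages also express. It measured 3.61, 3.88 and 3.44 CPM in the heterozygous replicates, against 8.84, 9.14 and 6.51 CPM in the wild-type replicates (log2 fold change −1.16 ± 0.20, edgeR adjusted p = 0.0494). Which cells the Il1rn RNA came from was not tested. The call stood near the threshold: adjusted p for Il1rn ran from 0.000423 (DESeq2) to 0.218 over the alternatives and missed 0.05 whenever 1 library was left out. All 18 had a negative fold change, with a median of −0.68 on the log2 scale, and −0.25 without wild-type replicate 1. DESeq2 called 2 of the 18 (Il1rn and Saa3), against 4.2% of all genes, and limma-voom 0. Saa2 and Lcn2, named for this, had no adjusted p in DESeq2 and counted as not called. Of 6 cytokines known to act on hepatocytes 3 were tested. EdgeR and limma-voom called 0 and DESeq2 called 1, Tgfb1, against 4.2% of all genes in DESeq2. For 2 of the 3 the heterozygous libraries all lay below the wild-type libraries, against 11.3% of all genes. Tnf measured 2.91, 1.45 and 1.26 CPM in the heterozygous replicates against 3.66, 3.43 and 4.54 CPM in the wild-type replicates, without overlap (edgeR adjusted p = 0.203). Tgfb1 measured 10.2, 11.5 and 14.3 CPM in the heterozygous replicates against 16.8, 20.3 and 18.4 CPM in the wild-type replicates, also without overlap (edgeR adjusted p = 0.112, DESeq2 adjusted p = 0.0455). Il1b, whose groups overlapped, measured 10.4, 6.72 and 2.41 CPM in the heterozygous replicates against 7.44, 9.74 and 6.57 CPM in the wild-type replicates (edgeR adjusted p = 0.886). Genes of pericentral hepatocytes, the zone in which Cyp7a1 and Cyp8b1 are mainly expressed, had a median of 0.015 over 10 genes with 0 called, and periportal genes a median of −0.18 over 10 genes with 0 called.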

How the data were processed

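RNA was sequenced from 6 liver samples, 3 heterozygous and 3 wild-type, with a stranded poly(A) kit, per the labels' protocols. The authors processed the reads with HTSeq 0.9.1, HISAT2 and Trimmomatic 0.36 on GRCm39, per the submitters' processing notes, which name no annotation or strand setting. They deposited raw counts per gene symbol, without normalization. Groups and replicate numbers come from the sample titles.

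In R 4.3.3 genes were filtered (filterByExpr), TMM-scaled and tested by the robust quasi-likelihood functions glmQLFit and glmQLFTest of edgeR 4.0.16, with Benjamini-Hochberg adjustment over all 12706 genes at 0.05. SEs were derived from the log2 fold change and the F statistic. Mean log2 CPM used a prior count of 2. Levels per kilobase used exon-union lengths matched by symbol from GENCODE M21 (GRCm38), another build than the counts. The test was tested on simulated data. Alternatives were RLE and upper-quartile scaling, other filters, DESeq2 1.42.0, limma-voom (limma 3.58.1), a replicate block, a non-robust fit, a threshold of 0.1 and libraries left out; list counts without wild-type replicate 1 were added after seeing the data.

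The members, gene lists and rules were chosen with earlier results of these data known. Named genes are the 10 members, Cebpb, Clec4f, and of each other list those past the threshold and up to 4 with the smallest p; others are marked. Besides those described, lists held cholangiocyte, endothelial, stellate cell, clock, sex-biased and sex chromosome genes. Fgf15, Slc51a, Tf and Xist were not analysed here. Bmal1 was tested under its other symbol, Arntl (log2 fold change 0.30, edgeR adjusted p = 0.568). Genes with close copies or antisense partners are uncertain. No pair of libraries with a value agreed within sampling noise. The measure gave no value for heterozygous replicates 1 and 2. Their counts differed well beyond such noise, with 3510 and 8220 for Cebpb and 92 and 478 for Ppargc1a.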

Additional observations from a re-analysis of the deposited data

How the results depend on the processing

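Under every alternative, 0 of the 10 genes passed the threshold. Their median log2 fold change moved by less than the spread between libraries, and Cyp7a1, Cyp27a1, Hsd3b7 and Nr1h4 kept their sign. Leaving out 1 library at a time gave log2 fold changes that crossed 0 for Cyp8b1 (−0.13 to 0.11), Cyp7b1 (−0.17 to 0.25), Akr1d1 (−0.24 to 0.022), Slc27a5 (−0.13 to 0.00026), Baat (−0.028 to 0.13) and Nr0b2 (−0.74 to 0.32). With both wild-type replicate 1 and heterozygous replicate 2 left out, Cyp8b1 stood at 0.023 and Nr0b2 at 0.023, Ppargc1a at −0.013 and Slc10a1 at −0.0053. With 1 library left out Cebpb ran from −0.70 to 0.016, Slc10a1 from −0.058 to 0.093 and Il1b from −0.78 to 0.11. None of these differences was past the threshold in any fit.

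The count of called genes over the whole table, 74, was less steady: 37 with upper-quartile scaling, 211 with no filter on low counts, 48 with at least 1 CPM in 3 samples, 534 in DESeq2, 46 in limma-voom, 20 with a non-robust fit, 4 with both wild-type replicate 1 and heterozygous replicate 2 left out and 325 at a threshold of 0.1. It ran from 0 to 122 with 1 library left out, and the cause was not tested. The 0 calls in edgeR came without heterozygous replicate 1 or 2 (1104 and 1601 genes at an unadjusted p under 0.05). With the replicate number as a block edgeR called 0 genes (1427 at an unadjusted p under 0.05). Deviations of same-numbered libraries correlated at −0.21, −0.31 and 0.19, so the numbers were not read as pairs. The 10 genes had 486 to 17697 counts in each library.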

Other observations

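Of the clock genes, those with the smallest p-values are given with their values, since in liver Cyp7a1 and Nr0b2 are known to follow the time of day. Of 13 tested clock genes 0 passed the threshold, with a median log2 fold change of −0.15. An unadjusted edgeR p under 0.05 was found for 2 of 13, against 13.2% of all genes. Ciart, a repressor in the clock, measured 0.291, 1.64 and 1.43 CPM in the heterozygous replicates against 9.15, 17.2 and 1.86 CPM in the wild-type replicates, and Npas2, an activator of the clock, 11.9, 10.5 and 6.25 CPM in the heterozygous replicates against 2.01, 2.01 and 7.44 CPM in the wild-type replicates (edgeR adjusted p = 0.256 and 0.397). Cry1 stood at 17.8, 20.1 and 11.1 CPM in the heterozygous replicates against 7.93, 7.67 and 12.5 CPM in the wild-type replicates and Per3 at 2.62, 1.21 and 3.44 CPM in the heterozygous replicates against 3.29, 9.19 and 3.78 CPM in the wild-type replicates (edgeR adjusted p = 0.233 and 0.383). Wild-type replicate 3 lay with the heterozygous libraries for Npas2 and Cry1 rather than with the other wild-type libraries. The time of tissue collection is not in the labels, and the part of the clock in the levels of Cyp7a1 and Nr0b2 was not tested.

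Male-biased liver genes were looked at because Cyp7b1 is one. Of 7 such genes other than Cyp7b1, 0 passed in edgeR and 2 in DESeq2 (4.2% of all genes), with a median log2 fold change of 0.36. For 2 of the 7 the heterozygous libraries all lay above the wild-type libraries, against 7.05% of all genes. Hsd3b5, a steroid dehydrogenase of male liver, measured 241, 210.2 and 126 CPM in the heterozygous replicates against 78.7, 96.4 and 75.4 CPM in the wild-type replicates, and Elovl3, a fatty acid elongase, 664, 711 and 795 CPM in the heterozygous replicates against 381, 527 and 549 CPM in the wild-type replicates, both without overlap (edgeR adjusted p = 0.0688 and 0.139, DESeq2 adjusted p = 4.03e-05 and 0.0248). Like Cyp7b1, 3 of the 7 (Hsd3b5, Slco1a1 and Ugt2b38) were lowest in replicate 3 of both groups, a pattern noticed after the values were seen. Elovl3 went the other way and was highest in replicate 3 of both groups. The share of all genes with such a pattern is not given here. Of 3 tested female-biased genes 0 passed, with a median of 0.41, and of 4 Y-linked genes 0 passed, with a median of 0.13.

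Other cell types gave 0 calls in edgeR among 5 cholangiocyte, 6 endothelial and 7 stellate cell markers tested, with medians of −0.51, 0.16 and −0.31. DESeq2 called 1 cholangiocyte marker (Spp1, adjusted p = 0.0321) and 2 stellate cell markers (Col1a1 and Col3a1, adjusted p = 0.0328 and 0.0183), against 4.2% of all genes. Limma-voom called 0 of the 3 lists. Cholangiocyte markers summed to 60.9 to 98.8 CPM in heterozygous and 106 to 155 CPM in wild-type libraries. Most of it came from Spp1, a gene that macrophages also express, with means of 62.7 CPM in heterozygous and 105 CPM in wild-type livers. Krt7 and Epcam had log2 fold changes of −1.09 and −0.51 (edgeR adjusted p = 0.388 and 0.650). The Krt7 libraries did not overlap, at means of 0.619 CPM in heterozygous and 1.34 CPM in wild-type livers. No overlap in this direction was found for 2 of the 5 cholangiocyte markers tested, against 11.3% of all genes. Sox9 and Krt19, the latter given to complete the tested markers, had log2 fold changes of −0.14 and 0.0042.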
